A study of Mus musculus with 4 samples.

Results

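Of 4783 merged E2A regions called in wild-type mouse liver, 603 lay between genes or just downstream of a gene and met no GR region. They were found by merging the E2A peaks of both replicates that shared at least 1 bp and keeping merged regions narrower than 1500 bp that shared no base with any of the 8795 merged GR regions. A region was dropped if any of its E2A peaks was annotated as promoter, and its leftmost E2A peak had to be annotated as distal intergenic (568 regions) or downstream of a gene (35 regions). The members were thus selected on measured values, the E2A and GR peak calls and the peak widths, and on the deposited annotation, and these are given as description only. The rule began with 2004 E2A regions that met no GR region, of which 1448 had no promoter peak and 604 were intergenic or downstream. Of these, 1 region was left out for its width, and the widest that stayed in was a 1486 bp region near Cyp3a11. At the overlap limit, the members closest to GR lay 19 bp (Gm19345), 20 bp (Wrnip1) and 98 bp (Phgdh) from a GR region, and the co-bound regions with the least overlap shared 41 bp (Rassf3), 56 bp (B3galnt1) and 59 bp (Cdk9).

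ChIP-Seq for GR and for E2A was done in livers of male C57BL/6 mice of genotype E47+/+, with 2 biological replicates per ChIP, 4 samples in all, and no genotype or treatment contrast. The study describes the E2A ChIP as done in the same livers as the GR ChIP, so the lists of both factors may share mice, and which list pairs with which is not given in the labels. The livers were taken at ZT 10 on chow diet, the labels call them untreated, and the methods give an age of 10 to 16 weeks and 8 µg of antibody per ChIP. A supplementary description of the peak lists calls the livers Dex-treated, and this difference could not be settled. The free-text descriptions of both E2A samples name a GR ChIP, and that of E2A replicate 2 names E47-/- mice, whereas title, antibody and genotype fields name E2A and E47+/+, which were used. Calls that were lost without replicate 2 are named beside the result. The E2A antibody recognises products of the gene Tcf3, and whole liver was used, so the cell type behind a peak was not measured.

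E2A is the name for the splice products of Tcf3, E12 and E47, which are basic helix-loop-helix (bHLH) E proteins that bind DNA as dimers at E-Boxes, the sequence CANNTG. Id proteins lack the basic region and keep E proteins from DNA. E proteins are best known from B and T lymphocyte development. GR, the glucocorticoid receptor, binds glucocorticoid response elements (GREs), and in liver it shares enhancers with hepatocyte factors of the C/EBP, HNF4, FoxA, HNF6 and STAT5 families.

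The reference sequence at the centres of 6 members is shown because these are among the 15 members called in both replicates with the widest narrower peak and because they differ in what they hold. Each window is 200 bp long, on the plus strand of mm10, and capitals mark matches, on either strand, to any of the 9 motifs that were more frequent in members than in their flanks (C/EBP, FOX, HNF6, HNF4, DR1, HNF1, NF1, CRE and SP/KLF). Positions are chr1:132333816-132334015 near Nuak2, chr11:21427507-21427706 near Ugp2, chr6:24047150-24047349 near Slc13a1, chr1:60599123-60599322 near Raph1, chr6:71185402-71185601 near Fabp1 and chr9:61370510-61370709 near Tle3.
Nuak2: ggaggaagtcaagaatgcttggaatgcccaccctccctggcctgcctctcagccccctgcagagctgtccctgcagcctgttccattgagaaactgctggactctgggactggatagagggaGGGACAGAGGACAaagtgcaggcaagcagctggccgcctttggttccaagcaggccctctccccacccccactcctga
Ugp2: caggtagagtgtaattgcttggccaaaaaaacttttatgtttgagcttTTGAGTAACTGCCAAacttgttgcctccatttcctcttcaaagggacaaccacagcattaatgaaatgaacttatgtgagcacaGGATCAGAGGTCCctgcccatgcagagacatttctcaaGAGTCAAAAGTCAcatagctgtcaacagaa
Slc13a1: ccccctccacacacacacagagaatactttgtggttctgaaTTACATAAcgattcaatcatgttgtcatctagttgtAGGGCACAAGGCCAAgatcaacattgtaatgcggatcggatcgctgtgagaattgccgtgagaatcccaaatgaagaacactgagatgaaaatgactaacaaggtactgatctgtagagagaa
Raph1: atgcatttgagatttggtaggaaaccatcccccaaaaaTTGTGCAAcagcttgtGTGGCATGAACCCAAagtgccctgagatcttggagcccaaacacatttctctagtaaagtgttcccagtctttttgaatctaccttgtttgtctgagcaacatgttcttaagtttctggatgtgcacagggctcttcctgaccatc
Fabp1: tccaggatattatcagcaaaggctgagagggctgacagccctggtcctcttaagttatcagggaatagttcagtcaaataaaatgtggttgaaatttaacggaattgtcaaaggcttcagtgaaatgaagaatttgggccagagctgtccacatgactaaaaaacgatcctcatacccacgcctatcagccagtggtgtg
Tle3: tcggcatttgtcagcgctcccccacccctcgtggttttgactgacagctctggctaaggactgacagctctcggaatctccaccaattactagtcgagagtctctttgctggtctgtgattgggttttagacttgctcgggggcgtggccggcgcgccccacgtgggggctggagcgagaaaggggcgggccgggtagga

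The windows near Nuak2 and Ugp2 held matches to DR1, a direct repeat of the nuclear receptor hexamer that HNF4 and PPAR-RXR dimers bind, at 28 bp from the centre for Nuak2 and at 38 and 76 bp for Ugp2. The window near Ugp2 also held an NF1 match. Near Slc13a1 a C/EBP match lay at -55 bp and an NF1 match at -16 bp from the centre, and near Raph1 the same pair lay at -58 and -39 bp. Raph1 was the only one of the 15 with a GRE match, which was not among the 9 motifs and is in lower case. The windows near Fabp1 and Tle3 held none of the 9 motifs, but 1 and 2 E-Boxes respectively. The Fabp1 window also held a STAT5 match, 19 bp from the centre, and an E-Box at 52 bp.

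The second set shows 30 bases around the cyclic AMP response element (CRE) TGACGTCA, printed in capitals, which is the sequence bound by CREB and ATF factors. It is shown because only 9 members held it, of which 8 are printed, and these members were chosen after their values were seen. The sequences are on the plus strand of mm10, at chr10:81571721-81571750 (Tle2), chr12:54459736-54459765 (Gm7550), chr13:51871334-51871363 (Gadd45g), chr17:84878019-84878048 (Ppm1b), chr2:129242638-129242667 (A730036I17Rik), chr4:123093527-123093556 (Bmp8b), chr9:123925374-123925403 (Ccr1) and chr9:124425633-124425662 (4930526I15Rik).
Tle2: agtgcttttggTGACGTCAgagacccatgt
Gm7550: tctcacatctaTGACGTCAtgagtttgacc
Gadd45g: atgtgcccagaTGACGTCAtggtcaaggac
Ppm1b: gcccagcacacTGACGTCAtcttgtttacc
A730036I17Rik: tggatccaggaTGACGTCAcctgctccaca
Bmp8b: taccatgggtaTGACGTCAgccctggttgc
Ccr1: cctcccggtggTGACGTCAtttgaaagaag
4930526I15Rik: aatggacgaggTGACGTCAccaacacgggc

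The 9 CRE members included regions near Gadd45g, a stress-induced growth arrest gene, Tle2, a Groucho family co-repressor, Ppm1b, a protein phosphatase, and Bmp8b, a bone morphogenetic protein. Of the 9, 2 were called in both replicates, among them that near 4930526I15Rik, with widths of 352 bp in replicate 1 and 410 bp in replicate 2. The other 7 were called in a single replicate. For 4 of the 9, the nearest gene also had a GR region elsewhere.

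The 4 peak lists held 4291 (GR replicate 1), 7334 (GR replicate 2), 4028 (E2A replicate 1) and 1892 (E2A replicate 2) peaks, and give positions and annotation but neither peak heights nor read counts. Depth per region is thus unknown, and width was the only measure of a peak. Among the nearest genes of all merged E2A regions, 11 of 12 hepatocyte markers occurred, while 1 of 6 cholangiocyte, 1 of 6 stellate cell, and 0 of 7 Kupffer cell, 0 of 6 endothelial, 0 of 6 B cell and 0 of 7 T cell markers did.

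Most members were called in 1 replicate only. E2A replicate 1 alone called 387 members, replicate 2 alone called 126, and both called 90, so that 477 members had a peak in replicate 1 and 216 in replicate 2. In replicate 1 their peaks ranged from 267 to 1486 bp with a median of 333 bp, and in replicate 2 from 248 to 1030 bp with a median of 307.5 bp. These members made up 11.8% of the peaks of replicate 1 and 11.4% of those of replicate 2.

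The share of regions called in both E2A replicates was 14.9% of 603 members (95% Wilson interval 12.3 to 17.99%), 31.0% of 629 co-bound intergenic E2A regions (27.5 to 34.7%) and 23.4% of all 4783 merged E2A regions. Co-bound regions met the same rule except that they shared at least 1 bp with a GR region. The peak calls that give these shares also chose the members, so they are a description without a test. Members called in both replicates had a median merged width of 439 bp, against 329 bp for replicate 1 only and 299.5 bp for replicate 2 only. A wider region has more bases that can meet a GR region, and merging overlapping peaks can itself widen a region. The part of width in these shares was not tested. All members had a median merged width of 332 bp, against 408 bp in co-bound regions. Regions, not mice, were the unit of every Fisher's exact test that follows, so that p-values do not cover variation between animals.

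**Figure D1:**
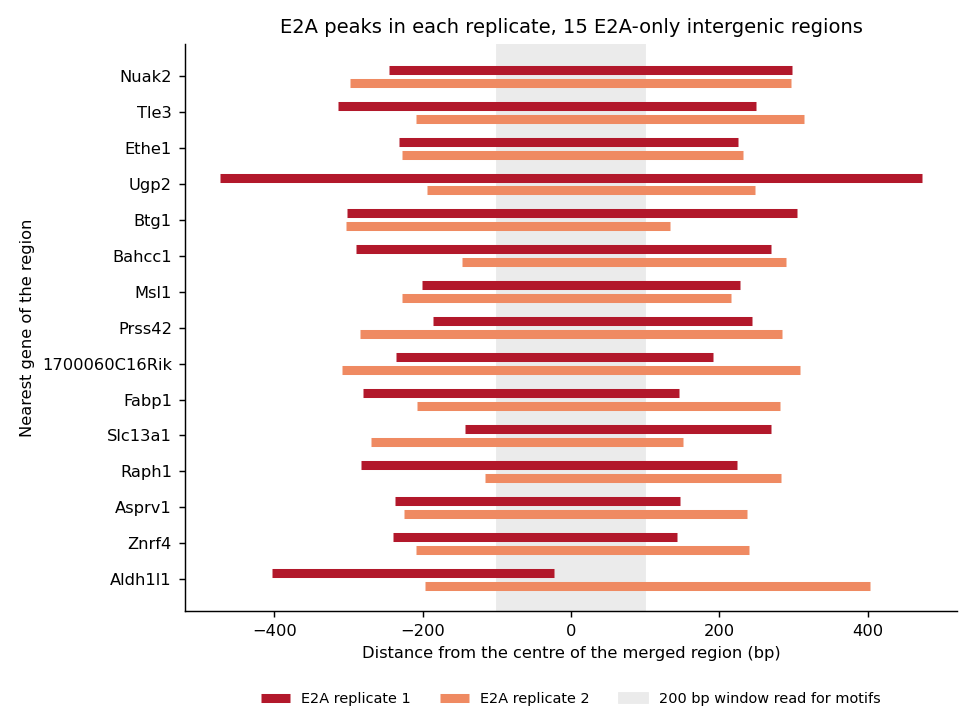
E2A peaks of replicates 1 and 2 (bars) at the 15 members with the widest narrower peak, by distance in bp from the centre of the merged region; the grey band is the 200 bp window read for motifs. The peaks of both replicates overlap at every region, by 542 bp near Nuak2 and by 174 bp near Aldh1l1.

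The 15 members called in both replicates with the widest narrower peak lay near genes of varied roles. Near Nuak2, an AMPK-related kinase, the peak was 544 bp wide in replicate 1 and 595 bp in replicate 2. Near Tle3, another Groucho family co-repressor, it was 565 and 525 bp. Near Ethe1, a mitochondrial sulfur dioxygenase, it was 457 and 460 bp. Genes are named by the deposited annotation, which put this region at -12830 bp from Ethe1. By GENCODE its nearest TSS was that of Xrcc1, at 2262 bp. In these 3 members the replicates placed largely the same interval, with 542, 460 and 453 bp in common.

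Near Ugp2, which makes the UDP-glucose used for glycogen, replicate 1 called 948 bp and replicate 2 called 442 bp that lay wholly inside it. Near Btg1, an anti-proliferative factor, the peaks were 607 and 439 bp. Near Fabp1, the liver fatty acid binding protein, they were 427 and 489 bp, and the region lay at -14242 bp from the Fabp1 transcription start site (TSS) and 11695 bp from the nearest GR region. The Ugp2 region was farther from both, at -55866 bp from its TSS and 56283 bp from GR.

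The others were near Bahcc1 (560 and 438 bp), Msl1, a subunit of a histone acetyltransferase complex (430 and 444 bp), Prss42, a serine protease (430 and 570 bp), 1700060C16Rik (429 and 618 bp) and Slc13a1, a sodium sulfate transporter (413 and 421 bp). Near Raph1, an actin regulator, the widths were 507 and 399 bp, near Asprv1, an aspartic protease, 385 and 464 bp, near Znrf4, a ubiquitin ligase, 383 and 450 bp, and near Aldh1l1, a folate enzyme, 380 and 600 bp. Of these 15, 10 had the wider peak in replicate 2, against 36 of all 90 members called in both. The nearest gene of 11 of the 15 had a GR region somewhere, 6 of the 15 windows held at least 1 of 7 liver motifs (C/EBP, FOX, HNF6, HNF4, DR1, HNF1, NF1), 8 held an E-Box and 8 had a GC content of at least 50%.

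In sequence, members had less GC than co-bound regions. Their 200 bp windows had a median GC content of 46.5%, against 49.0% in co-bound regions, 48.0% in GR-only intergenic regions and 44.5% in 1169 flanking windows, which began 500 bp outside the members and met no peak. Windows with a GC content of at least 50% made up 33.5% of members and 45.8% of co-bound regions (odds ratio 0.596, 95% interval 0.470 to 0.756, Fisher's exact test, two-sided, Benjamini-Hochberg adjusted p = 2.46e-05). The call was lost in regions called in both replicates (0.675) and with peaks at or above the median width of their list (0.765). A repeat-masked centre was found in 13.9% of members and 14.6% of co-bound regions (odds ratio 0.945, 95% interval 0.677 to 1.32, Fisher's exact test, adjusted p = 0.745), a difference not detected in these numbers. In the flanks 29.9% of centres were masked.

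The distance to a TSS was set in part by the annotation that the rule used, in both classes alike. In the GENCODE annotation, 90.9% of members lay within 50 kb of a TSS, against 94.6% of co-bound regions (odds ratio 0.569, 95% interval 0.354 to 0.905, Fisher's exact test, adjusted p = 0.0201). This call was lost when E2A replicate 1, GR replicate 1 or GR replicate 2 was left out (odds ratios 0.905, 0.6996 and 0.650), and the direction turned in regions called in both replicates (1.06) and with the wider peaks only (1.10). By the same annotation, 37 members (6.14%) lay within 1 kb of one of its TSSs, 14 of these at lincRNAs and 8 at protein-coding genes. The corresponding shares were 11.6% of co-bound and 9.24% of GR-only regions.

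**Figure D2:**
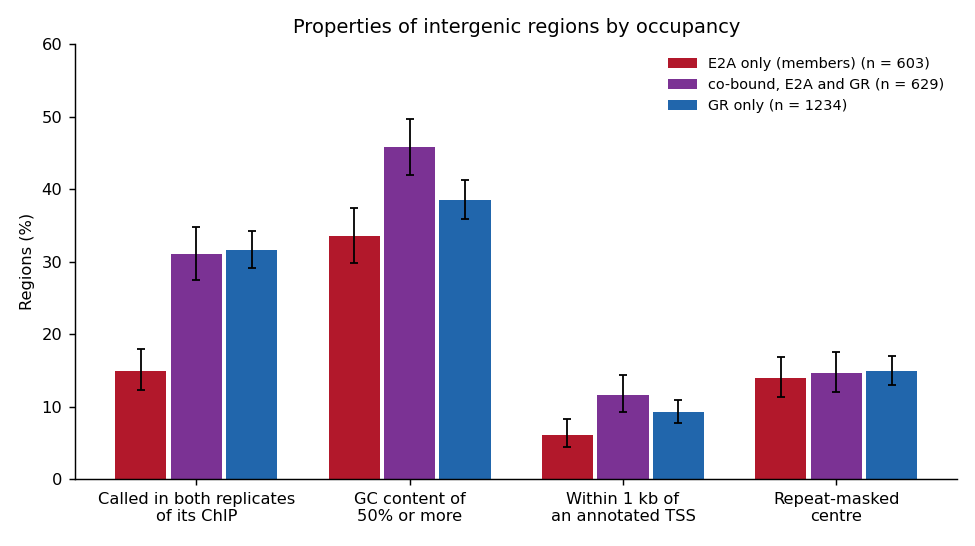
Share of regions (%, bars; error bars are 95% Wilson intervals) that were called in both replicates of their ChIP, had a GC content of at least 50%, lay within 1 kb of a GENCODE TSS or had a repeat-masked centre, in 603 E2A-only, 629 co-bound and 1234 GR-only intergenic regions. Members have the lowest shares in the first 3 properties, with 14.9%, 33.5% and 6.14%, and masked centres make up 13.9% to 14.9% in the 3 classes.

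Next it was asked which transcription factor motifs the members hold. Matches of 31 motifs were counted on both strands of the 200 bp windows, by consensus; GRE, DR1, HNF1 and NF1 matches could differ from it at 2 bases, CTCF at 1 and the others at none. Against their own flanks, members differed in 11 of the 31 motifs (35.5%) at an adjusted p under 0.05, 9 higher and 2 lower, all by two-sided Fisher's exact tests. Flanks were pooled as independent windows, without pairing each to its member. Of the 9 that were higher, 7 were those counted above as liver motifs, and the others were CRE and SP/KLF. STAT5, the motif of another family named above for liver, was not higher. It was found in 6.14% of members and 6.84% of flanks (odds ratio 0.890, Fisher's exact test, adjusted p = 0.779). C/EBP (TTRCRYAA), bound by the C/EBP factors of liver metabolism, was found in 11.8% of members and 3.25% of flanks (odds ratio 3.97, 95% interval 2.60 to 6.14, Fisher's exact test, adjusted p = 2.96e-10). FOX (TGTTTAY), bound by FoxA and FoxO factors, was found in 16.1% against 7.19% (odds ratio 2.48, 1.79 to 3.42).

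HNF4 (CAAAGTYCA), the motif of the nuclear receptor HNF4, was found in 27 members (4.48%) and 7 flanks (0.599%), an odds ratio of 7.78 (3.28 to 21.3). Of the 27, 8 also held a DR1 match, which can cover the same bases. DR1 itself was found in 11.1% against 4.70%, NF1, the motif of NFI factors, in 13.4% against 6.07%, HNF6 (ATYGATY) in 11.6% against 5.30%, and HNF1 in 4.15% against 0.941%. The HNF4 members, of which these were picked after their values were seen, included those near Cpt1a, the entry enzyme of mitochondrial fatty acid oxidation, Adh4, an alcohol dehydrogenase, Crot, a peroxisomal carnitine acyltransferase, and Prox1, a hepatocyte transcription factor.

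CRE was found in 9 members (1.49%) and 2 flanks (0.171%), with an odds ratio of 8.84 (1.82 to 84.2, Fisher's exact test, adjusted p = 0.00542). Without E2A replicate 2 the adjusted p of this test was 0.115, and the call was also lost in 100 bp windows and with unmasked centres. Co-bound regions held CRE about as often, in 9 of 629 windows (1.43%, odds ratio for members 1.04, 0.364 to 2.99). The GC-rich SP/KLF motif (GGGGCGGGG) was found in 2.16% against 0.428%, and within bins of 5% GC content, a comparison added after seeing the data, its adjusted p was 0.313. In those bins the other 8 motifs that were higher passed the threshold again. With members called in both replicates only, C/EBP and FOX alone passed, and without E2A replicate 1 it was C/EBP, FOX, CRE and NF1. With the wider peaks only, NF1 did not pass (odds ratio 1.12).

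Some members held several liver motifs, where HNF4 and DR1 matches on the same bases count as both. Each of the 7 had already been found higher in members than in flanks, so these counts are tied to that choice. STAT5, which was not higher in members, was not counted. The shares are thus a description without a test. At least 2 of the 7 were found in 17.4% of members (95% Wilson interval 14.6 to 20.6%), against 2.57% of flanks, 12.9% of co-bound and 10.6% of GR-only regions. None of the 7 was found in 48.1% of members and 74.8% of flanks, and exactly 1 in 34.5% and 22.7%. A count of all 6-mers, with reverse complements joined, gave 278 that differed between members and flanks (13.4%), 174 of them higher. Of the 174, 96 contained CG, while the 104 that were lower all lacked it. Members had more GC than flanks, and 6-mers were not compared within GC bins. The lowest p-values were those of CTGGCA (25.7% of members, odds ratio 2.31), ACTTTG (24.0% against 12.6%), which on the other strand is part of the HNF4 consensus, and TAAACA (23.4% against 12.3%), which on the other strand is the start of the FOX consensus.

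**Figure D3:**
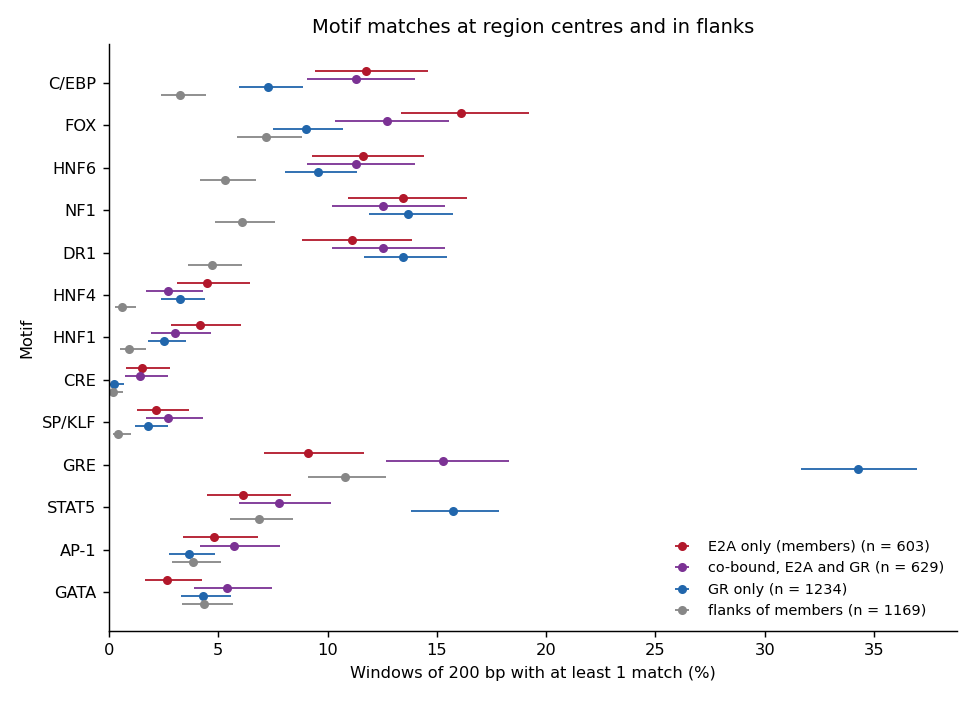
Share of 200 bp windows (%, points; bars are 95% Wilson intervals) with at least 1 match to 13 motifs in 603 E2A-only, 629 co-bound and 1234 GR-only intergenic regions and in 1169 flanks of members. C/EBP, FOX, HNF6, NF1 and DR1 lie above the flanks in members, and GRE stands at 9.12% in members, 15.3% in co-bound and 34.3% in GR-only regions.

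For the E-Box, no difference from the flanks was detected. A match to CANNTG was found in 406 of 603 members (67.3%) and 68.9% of flanks (odds ratio 0.932, 95% interval 0.751 to 1.16, Fisher's exact test, adjusted p = 0.698). The interval leaves room for a share moderately above or below that of flanks. Of the 10 E-Box cores, CATATG (3.81% against 6.67%) and CATGTG (13.3% against 17.7%) were lower in members, with adjusted p-values of 0.0402 and 0.0484 by Fisher's exact tests, and within GC bins neither passed. Without E2A replicate 1 neither passed either, and without E2A replicate 2 only CATGTG did. The core CAGCTG was found in 11.8% against 8.64% (odds ratio 1.41, 1.01 to 1.97, Fisher's exact test, adjusted p = 0.108), and it passed the threshold in 5 of the alternatives, among them those without GR replicate 1 or GR replicate 2 (odds ratios 1.46 and 1.59). The alternatives without a GR replicate count as members regions that met GR in the dropped list only, and co-bound regions held CAGCTG in 13.4%. In regions called in both replicates the direction was the opposite (3.33% against 8.67%, odds ratio 0.363), without passing. The core CACCTG was found in 12.6% of members against 14.6% of flanks, and it did not pass. Its odds ratio was 0.842 (0.621 to 1.13, Fisher's exact test, adjusted p = 0.488). Along 1 kb to either side of the centres, E-Boxes numbered 51.4 to 63.0 per 100 members in each 100 bp, with 57.0 and 54.9 in the central pair of bins.

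Of the liver motifs, only C/EBP, FOX, HNF4 and NF1 were profiled, and in members these were, by contrast, most frequent at the centres. C/EBP reached 7.96 and 6.14 matches per 100 members in the 2 central bins and stayed between 0.995 and 2.32 beyond 200 bp. HNF4 reached 2.82 and 1.82 and was at most 0.995 beyond 200 bp. NF1 reached 8.79 and FOX 9.62 in the bin just left of the centre. GRE had 4.15 matches per 100 members in that bin, its lowest value in the profile, whereas co-bound regions had 8.59.

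**Figure D4:**
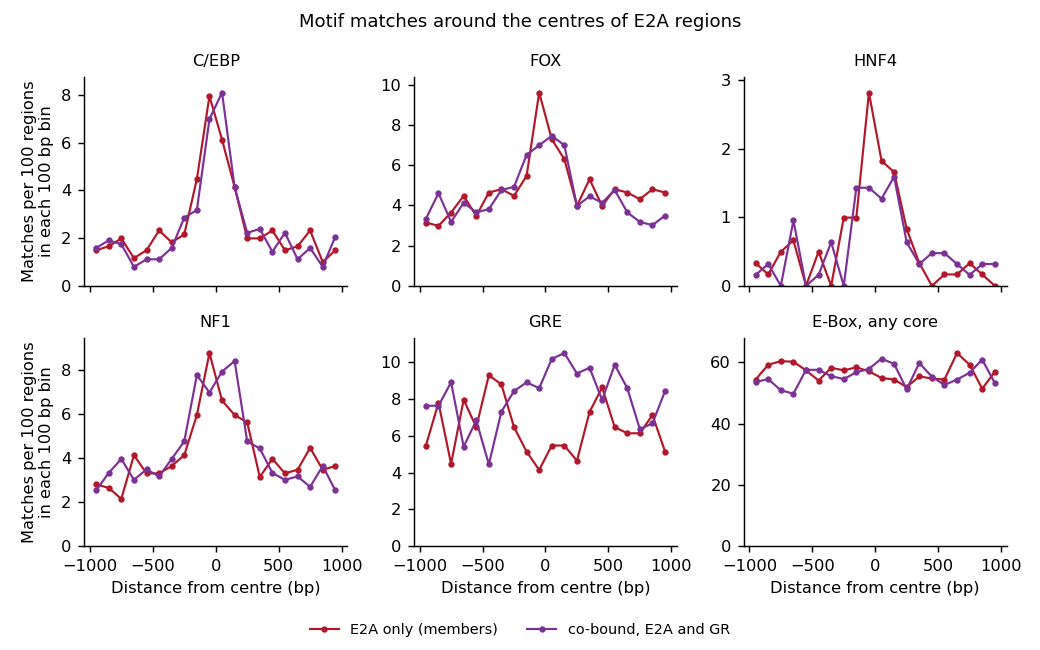
Motif matches per 100 regions in each 100 bp bin (y axis) by distance from the centre of the merged region in bp (x axis), for 603 E2A-only and 629 co-bound intergenic regions. In members C/EBP, FOX, HNF4 and NF1 are highest in the bin just left of the centre, in co-bound regions NF1 and HNF4 are highest at 100 to 200 bp, GRE matches in members are lowest in the bin just left of the centre, and the E-Box line is flat, between 51.4 and 63.0 in members.

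Against co-bound regions, members differed in 1 of 31 motifs (3.23%), the GRE. It was found in 55 members (9.12%), 96 co-bound windows (15.3%) and 126 flanks of members (10.8%). Co-bound regions met GR by the rule and members did not, so a GRE difference between them is tied to the selection. The odds ratio between members and co-bound regions was 0.557 (95% interval 0.384 to 0.803, Fisher's exact test, adjusted p = 0.0386), and that between members and flanks was 0.831 (0.584 to 1.17, Fisher's exact test, adjusted p = 0.488). With flanks that began 2000 bp away the latter was 0.665 and passed (Fisher's exact test, adjusted p = 0.0330). The E-Box did not differ detectably between members and co-bound regions (67.3% against 68.2%, odds ratio 0.961, 0.751 to 1.23, Fisher's exact test, adjusted p = 0.942), nor did C/EBP (odds ratio 1.05, 0.728 to 1.51) or FOX (1.32, 0.944 to 1.84). The GRE call was lost, with the same direction, without E2A replicate 1 (odds ratio 0.628, Fisher's exact test, adjusted p = 0.812), in regions called in both replicates (0.756), in 100 bp windows (0.565), with no GR region within 1 kb (0.586), with wider peaks (0.480) and with at most 1 GRE mismatch (0.255).

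GATA (2.65% against 5.41%) had an unadjusted p of 0.0200 by Fisher's exact test and an adjusted p of 0.310. For the E-Box core CACCTG (12.6% against 16.7%, odds ratio 0.720) these were 0.0444 and 0.459 by Fisher's exact test. Without GR replicate 2, CACCTG passed as lower in members against both co-bound and GR-only regions. None of the 6-mers passed between members and co-bound regions by Fisher's exact test (0%), and 214 had an unadjusted p under 0.05. The lowest p was that of GAACAA, in 9.62% of members and 17.6% of co-bound regions (Fisher's exact test, adjusted p = 0.0720), while 20 6-mers passed with 400 bp windows, 1 without E2A replicate 2 and 2 without GR replicate 2.

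Against GR-only intergenic regions, members differed in 5 of 31 motifs (16.1%). GRE matches were found in 34.3% of the 1234 GR-only windows, so the odds ratio for members was 0.192 (95% interval 0.140 to 0.261, Fisher's exact test, adjusted p = 5.27e-33). The rule gave GR-only regions a GR peak and members none, and the GRE is the sequence GR binds. This GRE contrast is therefore tied to the selection and is not an independent result about the members. STAT5 (TTCNNNGAA), the motif of the factors downstream of growth hormone, was found in 6.14% of members and 15.7% of GR-only regions (odds ratio 0.350, 0.236 to 0.509). Its share was 6.84% in flanks and 7.79% in co-bound regions, with no difference from members detected (odds ratios 0.890, 0.578 to 1.35, and 0.774, 0.483 to 1.23). In windows without a GRE, a comparison added after seeing the data, STAT5 was lower in members than in GR-only regions as well (odds ratio 0.321), while C/EBP no longer passed there. FOX (odds ratio 1.94, 1.43 to 2.62), C/EBP (1.70, 1.203 to 2.38) and CRE (6.22, 1.54 to 35.8) were higher in members. GRE passed in every alternative in which it could be tested. In regions called in both replicates it alone passed, and the odds ratios of FOX, STAT5, C/EBP and CRE were 1.89, 0.409, 2.102 and 4.41. The call of STAT5 was also lost without E2A replicate 1 (0.582), without GR replicate 2 (0.732) and with wider peaks (0.591). That of C/EBP was also lost without E2A replicate 1 (1.65) and with no GR region within 1 kb (1.59). That of CRE was also lost without E2A replicate 2 (4.62), without GR replicate 2 (3.90), with no GR region within 1 kb (5.59), with wider peaks (3.13), in 100 bp windows (10.3) and with unmasked centres (4.77).

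Motif shares were also compared by the replicate that called a member, without a test. C/EBP was found in 11.1% of the 387 members called in replicate 1 only, 11.9% of the 126 called in replicate 2 only and 14.4% of the 90 called in both. For FOX these shares were 15.8%, 18.3% and 14.4%, and for the GRE 8.79%, 9.52% and 10.0%, with overlapping Wilson intervals. HNF4 was found in 5.43%, 3.97% and 1.11% (1 of 90). The E-Box was found in 67.4%, 73.0% and 58.9%, and its core CAGCTG in 14.2% (11.1 to 18.04%), 10.3% (6.13 to 16.9%) and 3.33% (3 of 90, 1.14 to 9.35%). In co-bound regions the CAGCTG shares were 13.2%, 14.9% and 12.8% (8.84 to 18.2%), and the difference between the classes called in both replicates was not tested.

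Members lay at a wide range of distances from GR. The distance to the nearest GR region was 19 bp at the lowest, 21521 bp in the median and 3565340 bp at the highest, and 40 members lay within 1 kb and 291 within 20 kb. Members called in both replicates had a median distance of 42692 bp, against 18137 bp for those of replicate 1 only and 21647.5 bp for those of replicate 2 only. Jam3, an adhesion molecule named after its values were seen, was the nearest gene of the member called in both replicates that lay farthest from GR, with peaks of 284 and 290 bp and 1710300 bp to the nearest GR region. At the other end, the member near Nfib, an NFI factor, lay 109 bp from GR, with peaks of 308 and 437 bp.

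**Figure D5:**
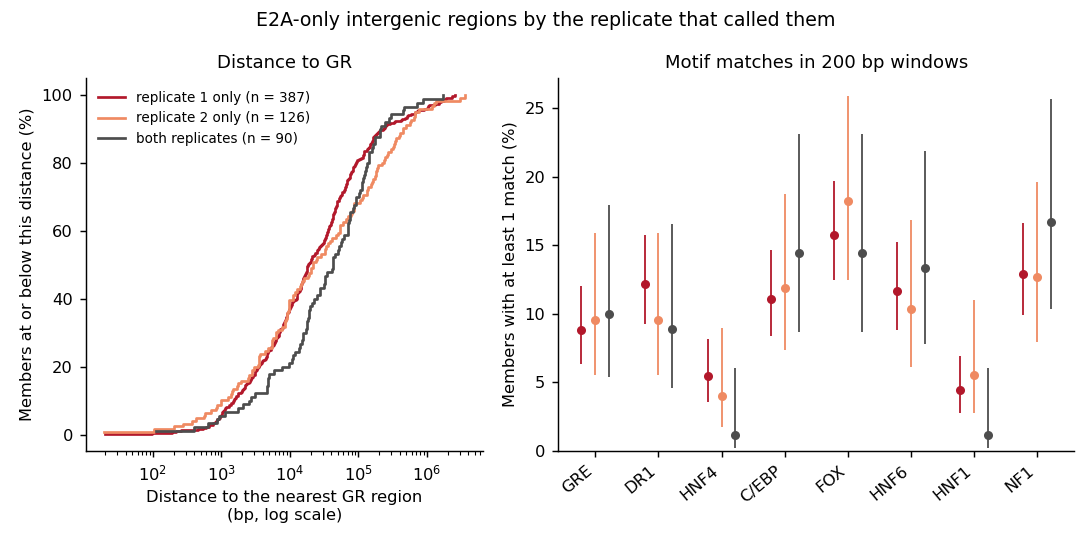
Left, cumulative share of members (%) by distance to the nearest GR region in bp on a log scale; right, share of members (%, points; bars are 95% Wilson intervals) with motif matches, for 387 members called in replicate 1 only, 126 in replicate 2 only and 90 in both. The line of members called in both lies to the right, with a median of 42692 bp, and most motif shares overlap.

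GR regions elsewhere were counted for the nearest gene of each member, with no like count for other regions, so that these shares cannot be read as particular to the members. Of the 603 members, 398 (95% Wilson interval 62.1 to 69.7%) had a nearest gene with a GR region assigned to it, 267 (44.3%) one with a GR promoter region, 221 (36.7%) one with a co-bound E2A region and 143 (23.7%) one with an E2A promoter region. Among the 90 members called in both replicates, the nearest gene of 56 (62.2%) had a GR region. The 603 members fell to 537 genes, 486 of them with 1 member, 38 with 2, 11 with 3 and 2 with 4. Among autosomes, the share of E2A regions that were members ranged from 4.42% on chromosome 17 (8 of 181) to 16.9% on chromosome 3 (42 of 248).

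Genes with several members included drug-metabolising enzymes. Cyp3a11, a major hepatic P450, had 4 members over 60273 bp, with widths of 714, 1486 and 319 bp in replicate 1 and 274 bp in replicate 2, none called in both. Cyp2b9, a female-predominant hepatic P450, had 3 members, at -33467, -29560 and -3891 bp from its TSS. Of these, the first was 344 and 345 bp wide in replicates 1 and 2, the second 285 bp in replicate 1 only, and the third 606 and 269 bp. No GR region was assigned to Cyp2b9, and its members lay 84129 to 113443 bp from GR. Tenm3, a synaptic adhesion protein, also had 3 members and no GR region, all called in replicate 1 only.

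Pik3r1, the regulatory subunit of PI3-kinase in insulin signalling, had 4 members over 344718 bp beside 7 GR regions, and all 4 were called in replicate 1 only, at widths of 272 to 394 bp. Nr2f2, an orphan nuclear receptor, had 3 members within 10191 bp, of which 1 was called in both replicates (805 and 254 bp). The vitamin D binding protein gene Gc had 3 members within 8342 bp beside 3 GR regions, with widths of 354 and 324 bp in replicate 1 and 258 bp in replicate 2. The member of 354 bp held FOX, HNF6 and HNF1 matches, and it lay 1013 bp from GR. Other genes with 3 members included Ugp2, Nfe2l2, a regulator of the antioxidant response, Sucnr1, the succinate receptor, Rnf152, Mrpl15 and Gm20268.

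The members were also counted against 13 lists of genes, as counts without a test, and 48 members (7.96%) fell to a gene on any of them. Of 64 MAPK signalling genes, 8 had 1 member each, 1.33% of members against 0.636% of co-bound regions and 0.878% of all E2A regions. They were the phosphatases Dusp1, Dusp10 and Dusp16, the inhibitors Spred1, Spred2 and Spry4, and the kinases Mapk3 and Mapkapk5. Near Dusp1, which inactivates MAP kinases, at chr17:26522572-26522952, the peaks were 283 and 301 bp, at -14100 bp from the TSS and 9649 bp from GR, and this was the only one of the 8 called in both replicates. The nearest gene had a GR region in 5 of the 8, and in none of Dusp10, Mapk3 and Mapkapk5.

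Of 46 genes for E proteins, Id proteins and other bHLH factors, 5 had 1 member each, all in a single replicate (0.829% of members, 0.477% of co-bound regions and 0.878% of all E2A regions). They were Id1 and Id3, the inhibitors of E proteins, Myc, Bhlhe41, a circadian repressor, and Ahr, the receptor for dioxin. The Id1 region, at chr2:152739349-152739830, was 482 bp wide in replicate 1, lay at 3098 bp from the TSS and 2867 bp from GR, and held DR1 and C/EBP matches. The Myc region was 395 bp wide in replicate 1 and lay 1647 bp from GR.

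Metabolic genes were represented by a few members each. Of 63 fatty acid, triglyceride and cholesterol genes, 9 had 10 members, 1.66% of members against 3.50% of co-bound and 1.69% of all E2A regions. They included Apob, Apoc4, Cpt1a, Fabp1, Gpam, Insig2, Plin2 and Scd1, and only the Fabp1 region was called in both replicates. The Cpt1a region, at chr19:3320136-3320458, was 323 bp wide in replicate 1, lay at -2843 bp from the TSS and held HNF4 and DR1 matches. Of 31 genes of gluconeogenesis, glucose handling and insulin signalling, 5 (Igf1, Irs2, Pik3r1, Sik1 and Trib1) had 8 members, 1.33% against 1.59% of co-bound and 1.21% of all E2A regions, and none was called in both replicates.

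Of 39 hepatocyte transcription factors, 7 had 8 members (Atf3, Bcl6, Cebpa, Foxa2, Klf10, Nfib and Prox1), 1.33% of members against 3.34% of co-bound and 1.65% of all E2A regions. Of 64 plasma protein genes, 6 had 8 members (Ambp, F11, Gc, Hp, Itih3 and Trf), 1.33% against 2.86% of co-bound and 1.88% of all E2A regions. The region near Ambp, a protease inhibitor precursor, was 374 and 422 bp wide, and that near Itih3, an inter-alpha trypsin inhibitor chain, was 328 and 274 bp. Ambp had no GR region, and its member lay 72882 bp from GR.

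Among cell type markers, 2 of 12 for hepatocytes (Apob and Cebpa) and 1 of 6 for stellate cells (Reln) had a member, and none for cholangiocytes, Kupffer cells, endothelium, B cells or T cells did. The Reln region was 343 and 379 bp wide and lay 52780 bp from GR. A nearest gene is an assignment by distance, and expression was not measured in these samples.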

How the data were processed

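ChIP-Seq peak lists of 4 samples of wild-type liver were used, 2 for GR and 2 for E2A (antibody sc-349). The authors used BWA-MEM for alignment of read pairs (mm10) and Picard for duplicate removal, reduced the libraries to 18 mio (GR) or 22 mio (E2A) unique pairs and called peaks with MACS2 per sample, and the submitters' processing notes name BWA 0.7.13, Picard 1.119 and MACS2 2.1.0. The deposited files hold positions and widths in bp, annotation, nearest gene and signed distance to its TSS in bp, with neither score nor count, so the depth per region is unknown. Replicate numbers follow the labels, and for GR the file names have them the other way round.

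From there, overlapping peaks were merged and 200 bp windows at region centres were read from GRCm38.p6 (the sequence of mm10), with TSSs from GENCODE M21, using Python 3.11.15, pandas 2.3.3, pysam 0.24.0, scipy 1.17.1 and statsmodels 0.14.6. Shares of regions, other than the share called in both replicates, were compared by two-sided Fisher's exact tests with Benjamini-Hochberg adjustment over the 4 properties, over the 31 motifs or over all 6-mers, at a threshold of 0.05. Intervals of shares (Wilson, 95%) cover counting error only. The scripts were tested on simulated data. Named were the 15 members called in both replicates with the widest narrower peak, members at listed genes (up to 4 per list with values, those called in both first, then the nearest to the TSS) and genes with 3 or more members; exceptions are stated where they occur, and a few named members are not reported here. The members and lists were chosen with earlier results of these data known. Alternatives changed the overlap, the replicates, the widths, the annotation, the windows, the flanks and the GRE mismatches. E2A ChIP in E47 mutant liver and IgG controls were not analysed here, so the specificity of the antibody at the members was not tested.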

Additional observations from a re-analysis of the deposited data

How the results depend on the processing

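The E-Box CANNTG and masked-centre comparisons did not pass under any alternative that was run. With no GR region within 1 kb, 0 motifs passed against co-bound and 3 against GR-only regions, and the GRE odds ratio was 0.586. With an overlap of 50% required, 2 6-mers passed, and with distal intergenic annotation only, 1 did. Called in both replicates, 90 members remained in the count, 2 motifs passed against flanks, 0 against co-bound and 1 against GR-only regions, and odds ratios were 0.756 for GRE, 0.675 for GC content, 1.06 for the TSS distance and 0.961 for HNF1 against flanks, the last 2 in the other direction. With peaks at or above the median width, 310 members were counted, 0 and 3 motifs passed against co-bound and GR-only regions, and odds ratios were 0.480 for GRE, 0.765 for GC content and 1.10 for the TSS distance, the last in the other direction. In 100 bp windows 7 motifs passed against flanks and 0 against co-bound regions, with a GRE odds ratio of 0.565. In 400 bp windows 20 6-mers passed, with unmasked centres 7 motifs passed against flanks, within bins of 5% GC content, added after seeing the data, 2 passed against co-bound regions (GRE and GATA), and with at most 1 GRE mismatch the odds ratio was 0.255. The causes were not tested.

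Leaving out 1 library at a time gave 220 (without E2A replicate 1) to 762 (without GR replicate 2) members, 4 to 13 motifs against flanks, 0 to 2 against co-bound and 3 to 8 against GR-only regions, 0 to 2 6-mers, and odds ratios of 0.491 to 0.628 for GRE and 0.550 to 0.905 for the TSS distance. The share called in both replicates has no value when 1 E2A library is left out or both are required, and 2 odds ratios against flanks without a match (HNF4 in regions called in both, CRE with flanks 2000 bp away) have no finite value. No paired analysis was possible because the results come from called regions, with no model fitted across samples. Without read counts, a weak GR signal at a member cannot be told apart from none.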
